A study of Mus musculus with 4 samples.

Results

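The genes described here handle iron and heme in macrophages: *Hmox1*, *Blvra*, *Blvrb*, *Slc40a1*, *Cp*, *Tfrc*, *Steap3*, *Slc11a1*, *Slc11a2* and *Fth1*. They were chosen by name, and their probes were found by the gene symbol printed in the array files. The 10 genes are represented by 17 probes, out of 23688 genes with a symbol, which have 31397 probes.

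Gene expression was measured in bone marrow-derived macrophages (BMDMs) of C57BL/6J mice aged 10 weeks, with 1 Agilent 1-colour microarray for each of 4 conditions. All cells were first grown from bone marrow for 6 days in L929 cell supernatant, which supplies macrophage growth factor, and were then stimulated for 2 days. M1 BMDMs were wild-type and received IFNg at 20 ng/ml with LPS at 100 ng/ml. M2 BMDMs were wild-type and received IL-4 at 50 ng/ml. Lamtor1-deficient BMDMs, whose genotype is given in the labels as p18 (2400001E08Rik) -/-, received the same IL-4. By the study's methods these cells come from Lamtor1 flox/flox mice carrying LysM-Cre, so the deletion acts in cells of the myeloid lineage. Torin1-treated BMDMs were wild-type and received the same IL-4 together with Torin1, an ATP-competitive inhibitor of the kinase mTOR, at 250 nM, and no vehicle is named for the arrays. Lamtor1 anchors the Ragulator complex to the lysosome, where mTORC1 is activated by amino acids. The comparisons with M2 BMDMs ask how iron and heme genes differ between the polarized states, and what loss of Lamtor1 or inhibition of mTOR does to them under IL-4.

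Macrophages take up senescent red blood cells, break down their heme and return the iron to the circulation, and during infection they withhold iron instead. Heme oxygenase and the biliverdin reductases degrade heme, ferroportin exports the iron that is released, ferritin stores what is kept, and the transferrin receptor brings in iron from plasma. Many of these transcripts are also controlled after transcription by iron regulatory proteins, which bind hairpins in the mRNAs of ferritin, ferroportin and the transferrin receptor.

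Each condition has 1 array, so no difference below has a replicate check and no test was possible. A processed signal is the scanner's background-corrected brightness of a probe, and a ratio compares processed signals after each array was divided by its own 75th percentile. That percentile was 287 in M1 BMDMs, 595 in M2 BMDMs, 536 in Lamtor1-deficient BMDMs and 470.0 in Torin1-treated BMDMs. Between 50.9% and 55.5% of probes on an array were well above background, and no spot was saturated. Probes spotted many times gave a technical SD of 0.09 to 0.10 for a log2 ratio, which covers the spots of an array and not the cells. The probe for *Lamtor1* read 14688 in M1, 39460 in M2, 833 in Lamtor1-deficient BMDMs and 35232 after Torin1. The array labelled as deficient thus held 2.34% of the M2 level after scaling. Whether this probe lies in the deleted part was not checked here. All 8 macrophage markers measured were well above background on all 4 arrays. Of these, 1 was 2-fold or more higher and 2 lower than M2 in M1 BMDMs, 3 were lower without Lamtor1 and 2 were lower after Torin1. Beside these stand 28.3% of all genes higher and 25.3% lower in M1, 9.38% lower without Lamtor1 and 14.3% lower after Torin1.

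The 17 probes do not sit at the same place in their transcripts, and the paired probes of *Steap3* and of *Slc11a2* gave different answers. The part of probe position in this was not tested. The RNA was labelled from an oligo-dT primer, which starts at the poly(A) tail. The sequences below show, for the genes on which the results turn, a 60-base probe that holds no polyadenylation signal (AATAAA or ATTAAA), and, for *Steap3* and *Slc11a2*, a 30-base stretch of the other probe with that signal in capitals.

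Hmox1, chr8:77620797-77620856, plus strand: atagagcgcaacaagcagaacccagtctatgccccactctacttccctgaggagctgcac
Tfrc, chr16:32624877-32625093, plus strand: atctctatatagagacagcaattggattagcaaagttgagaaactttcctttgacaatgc
Cp, chr3:19889071-19889130, plus strand: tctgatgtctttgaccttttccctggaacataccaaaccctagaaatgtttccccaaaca
Steap3 without the signal, chr1:122124269-122124328, minus strand: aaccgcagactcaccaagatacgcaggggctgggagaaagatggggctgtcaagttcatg
Steap3 with the signal, within chr1:122123244-122123303, minus strand: atgtgccccaggcctgccttcATTAAAttg
Slc11a2 without the signal, chr15:100240516-100240575, minus strand: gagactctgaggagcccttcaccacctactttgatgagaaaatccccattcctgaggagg
Slc11a2 with the signal, within chr15:100218333-100218392, minus strand: catccttgttatAATAAAgttcatgcttaa

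The positions are those of the array files, in build mm9. The *Tfrc* probe shown covers a span of 217 bases with 60 bases of sequence. The paired probes of *Steap3* lie 965 bases apart and those of *Slc11a2* 22123 bases apart. Such a signal occurs in 4 of the 17 member probes and in 13.7% of the 55681 probes of the whole array. The exon and UTR annotation of mm9 was not used here.

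*Tfrc*, the receptor that brings transferrin-bound iron into the cell, had the widest range of the 10 genes. It was highest in M2 BMDMs and was lower under every other condition. Its main probe, the brightest of its 3 and spotted 10 times, read 62.6 in M1, 19173 in M2, 9125 without Lamtor1 and 1184 after Torin1. After scaling, *Tfrc* was 148-fold lower in M1 than in M2 BMDMs (log2 ratio -7.21). Torin1 treatment gave a 12.8-fold lower level than M2 (log2 ratio -3.68). Lamtor1 deficiency gave a 1.89-fold lower level (log2 ratio -0.92), which is short of the 2-fold threshold used for counts. With quantile normalization that log2 ratio was -1.10, past the threshold.

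The spots of this probe show how tightly the level was measured on each array. The 9 spots kept ranged from 52.1 to 80.8 in M1, from 18145 to 19829 in M2, from 8316 to 9441 in Lamtor1-deficient BMDMs and from 1121 to 1256 after Torin1. No spot of 1 array reached the range of another. 1 more spot, marked as an outlier on every array and left out, read 664 on the M1 array. With it kept, the log2 ratio of M1 over M2 was -6.26, and with background correction by the normexp model it was -6.28.

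The other *Tfrc* probes had the same order of conditions. The probe whose sequence is given above read 7.20 in M1, 1566 in M2, 802 without Lamtor1 and 36.6 after Torin1. It was not well above background on the M1 array, so the level there was at least 40.2-fold lower than in M2. The last probe read 46.7 in M1, 11283 in M2, 5962 in Lamtor1-deficient BMDMs and 319 after Torin1. For Torin1 over M2 these probes gave log2 ratios of -5.08 and -4.81, a larger difference than the main probe. Lamtor1-deficient BMDMs held 6.76-fold more *Tfrc* than Torin1-treated BMDMs by the main probe (log2 ratio 2.76), and 19.2-fold and 16.4-fold more by the other probes.

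**Figure D1:**
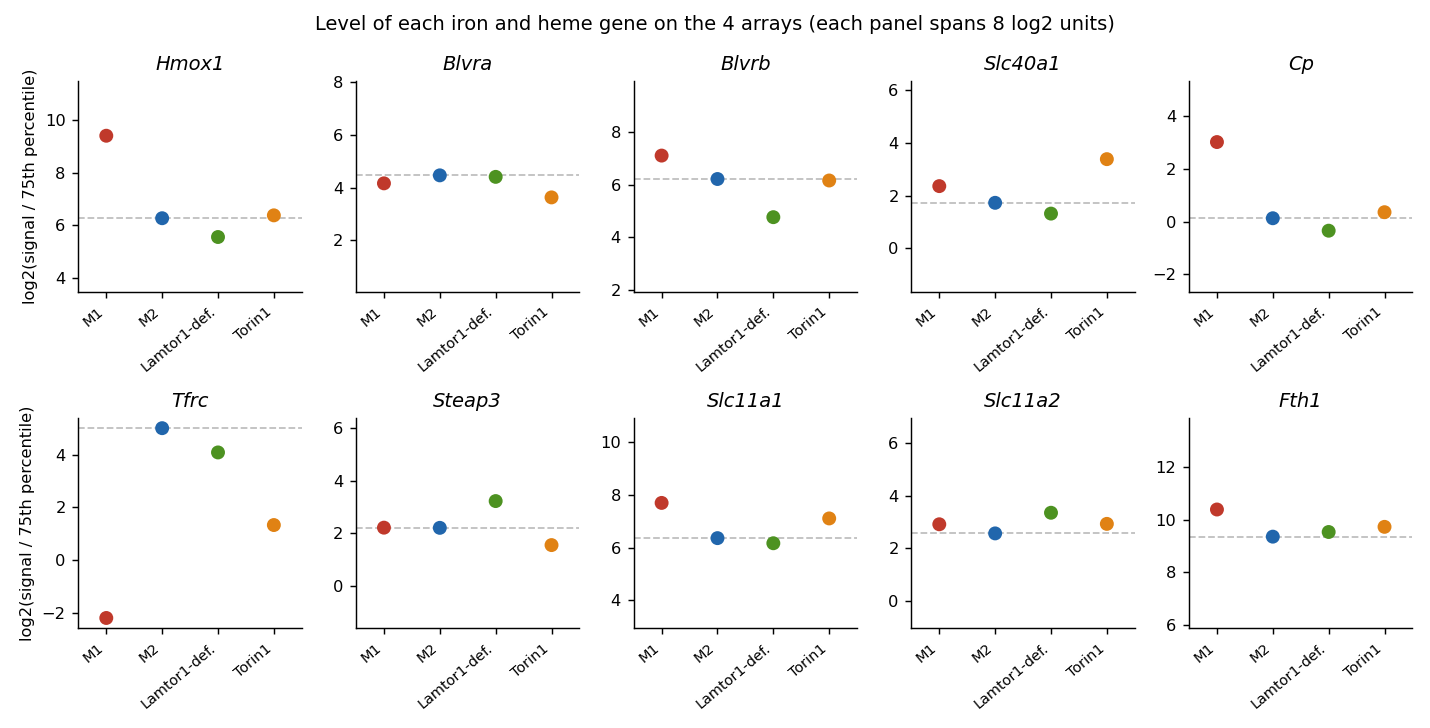
Level of each gene on the 4 arrays, as log2 of the processed signal divided by that array's 75th percentile (y axis), for the main probe of each gene. The dashed line marks the M2 level, each point is 1 array, and each panel spans the same number of log2 units. *Tfrc* has the widest range (7.21 log2 units), followed by *Hmox1* (3.85), while *Slc11a2* varies least (0.78).

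*Steap3*, the ferrireductase that turns endosomal iron into the form that can leave the endosome, was read differently by its probes. The probe with the polyadenylation signal, the brighter one on average, read 1331 in M1, 2747 in M2, 5008 without Lamtor1 and 1379 after Torin1. By this probe *Steap3* was 2.02-fold higher in Lamtor1-deficient than in M2 BMDMs (log2 ratio 1.02), at the edge of the threshold. The probe without the signal read 1103 in M1, 3669 in M2, 2477 in Lamtor1-deficient BMDMs and 1895 after Torin1, a log2 ratio of -0.42 for the same comparison. The direction of the Lamtor1-deficient difference therefore depends on the probe. The probe with the signal was the brighter one only in M1 and Lamtor1-deficient BMDMs, and its higher average came from the latter array. Its choice as main probe thus rested on the same value as the call. Both probes were lower after Torin1, at log2 ratios of -0.65 and -0.61.

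*Slc11a1*, also called Nramp1, moves metal ions out of the phagosome of macrophages. Its single probe read 59527 in M1, 48860 in M2, 38504 without Lamtor1 and 64838 after Torin1. It was 2.53-fold higher in M1 than in M2 BMDMs (log2 ratio 1.34), but the log2 ratio fell to 0.52 when arrays were scaled by their medians. Torin1 treatment gave a log2 ratio of 0.75 and Lamtor1 deficiency one of -0.19.

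*Slc11a2*, or DMT1, carries ferrous iron out of the endosome. Its probe with the polyadenylation signal read 2152 in M1, 3511 in M2, 5451 in Lamtor1-deficient BMDMs and 3566 after Torin1. The probe without the signal read 504 in M1, 742 in M2, 787 without Lamtor1 and 279 after Torin1. For Torin1 over M2 the first gave a log2 ratio of 0.36 and the second of -1.07, so the sign differed between them. For Lamtor1 deficiency both were above 0, at 0.78 and 0.23. Over the 6 genes with more than 1 probe and all 4 comparisons, 17 of 23 pairs of gene and comparison had 1 sign across the probes and 6 had both, leaving out *Cp* for Torin1 over M2, where 1 probe was dim on both arrays.

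**Figure D2:**
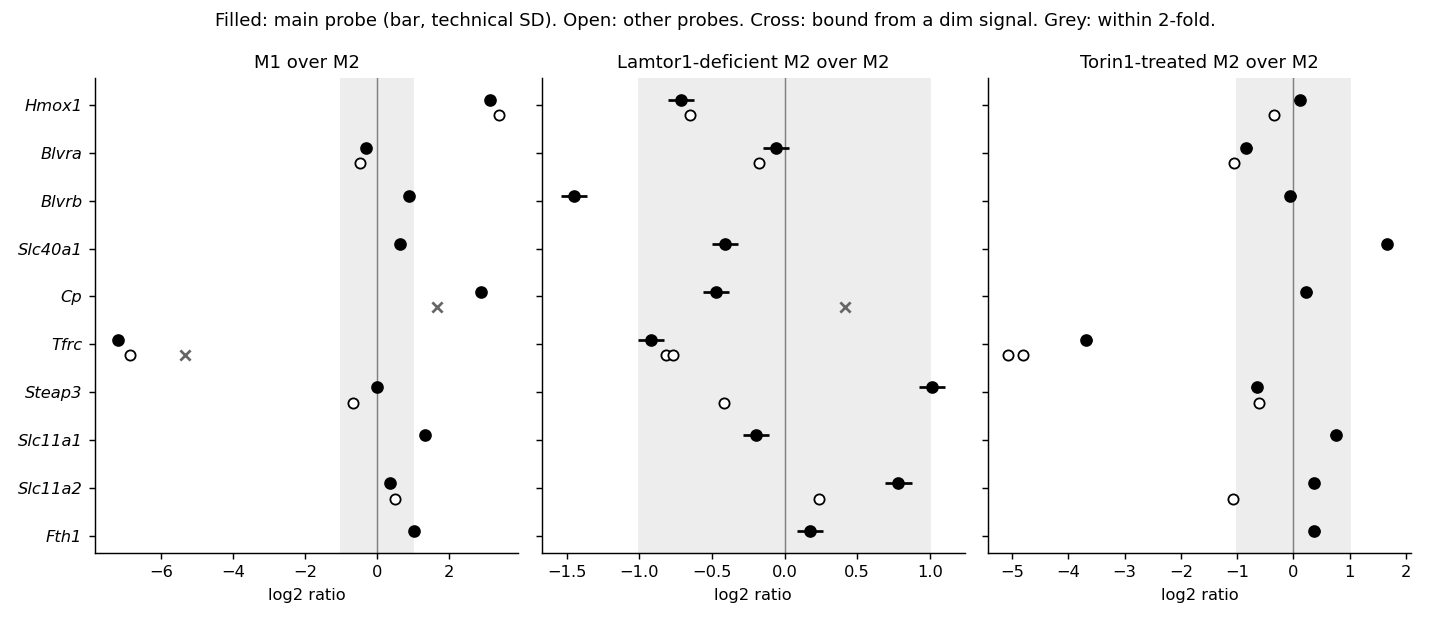
Log2 ratio (x axis, a different range in each panel) of every probe of the 10 genes against M2. Filled points are the main probe with the technical SD as a bar, open points the other probes, crosses bounds where 1 array was not well above background, and grey is the range within 2-fold. A probe that was dim on both arrays is not drawn. The 3 *Tfrc* probes lie together below 0, whereas the *Steap3* probes lie on both sides of 0 for Lamtor1 deficiency and the *Slc11a2* probes for Torin1.

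*Slc40a1*, which encodes ferroportin, the iron exporter of the cell, was highest after Torin1. Its single probe read 1474 in M1, 1971 in M2, 1337 in Lamtor1-deficient BMDMs and 4914 after Torin1. Torin1-treated BMDMs had a 3.16-fold higher level than M2 (log2 ratio 1.66), whereas Lamtor1-deficient BMDMs had a log2 ratio of -0.41. Set against each other, Lamtor1-deficient BMDMs were 4.19-fold lower than Torin1-treated BMDMs (log2 ratio -2.07). The log2 ratio of M1 over M2 was 0.63, and it was -0.19 when arrays were scaled by their medians.

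*Cp* encodes ceruloplasmin, the ferroxidase that acts beside ferroportin so that iron can load onto transferrin. Its main probe read 2335 in M1, 652 in M2, 424 without Lamtor1 and 604 after Torin1. M1 BMDMs stood 7.43-fold above M2 (log2 ratio 2.89), and the log2 ratios were -0.47 without Lamtor1 and 0.23 after Torin1. A dimmer probe, from another transcript record, was well above background in M1 and Lamtor1-deficient BMDMs alone, with signals of 33.0 and 26.1. It gave at least a 3.17-fold higher level in M1 than in M2. Without Lamtor1 it gave at least a 1.34-fold higher level, the opposite direction to the main probe. *Heph* and *Hephl1*, which encode related ferroxidases, were not well above background on any array.

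*Hmox1*, the inducible heme oxygenase, was highest in M1 BMDMs. Its main probe read 193177 in M1, 45709 in M2, 25127 in Lamtor1-deficient BMDMs and 38957 after Torin1. M1 BMDMs were 8.77-fold above M2 (log2 ratio 3.13). The second probe, whose sequence is given above, read 21087 in M1, 4215 in M2, 2423 without Lamtor1 and 2628 after Torin1. It gave 10.4-fold for the same comparison (log2 ratio 3.38). Lamtor1-deficient BMDMs were lower than M2 by both probes, with log2 ratios of -0.71 and -0.65. For Torin1 the probes gave 0.11 and -0.34. *Hmox2*, the constitutive heme oxygenase, had log2 ratios of 0.91 in M1, -0.13 in Lamtor1-deficient BMDMs and -0.19 after Torin1.

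*Blvrb* encodes biliverdin reductase B, which also reduces flavins. Its probe read 39550 in M1, 44280 in M2, 14620 without Lamtor1 and 33649 after Torin1. Lamtor1-deficient BMDMs were 2.73-fold below M2 (log2 ratio -1.45), while Torin1-treated BMDMs were close to M2 (log2 ratio -0.06). Lamtor1-deficient BMDMs were 2.63-fold below Torin1-treated BMDMs.

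*Blvra*, which encodes the biliverdin reductase that makes bilirubin, had the reverse arrangement. Its main probe read 5151 in M1, 13186 in M2, 11425 in Lamtor1-deficient BMDMs and 5833 after Torin1. The log2 ratio to M2 was -0.84 after Torin1 and -0.06 without Lamtor1. The second probe read 3666, 10580, 8454 and 3995 in the same order, with log2 ratios of -1.07 and -0.17. By both probes Torin1-treated BMDMs had the lowest level after scaling and M2 BMDMs the highest. With median scaling the main probe was lowest in M1, at a log2 ratio of -1.12 beside -1.08 after Torin1, both past 2-fold.

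*Fth1*, the heavy chain of ferritin, stores iron and was among the brightest probes of every array. Its probe read 384154 in M1, 389928 in M2, 397215 without Lamtor1 and 398864 after Torin1. These signals were almost the same, and the ratio of M1 to M2 before scaling was 0.985. The highest probe signal on the M2 array was 399700, and whether signals this bright still follow the RNA level was not tested. After scaling the log2 ratio of M1 over M2 was 1.03, so this step alone placed *Fth1* past the threshold. It was 0.21 with median scaling and -0.065 with quantile normalization. The light-chain genes *Ftl1* and *Ftl2*, whose copies are nearly identical in sequence, read 318406 and 291030 in M2 and 328925 and 310696 in M1, and they too passed the threshold in M1 only after scaling.

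Counted together, 4 of the 10 genes were 2-fold or more higher in M1 than in M2 BMDMs (*Hmox1*, *Cp*, *Slc11a1* and *Fth1*) and 1 was lower (*Tfrc*). Of the 16071 genes measured in that comparison, 28.3% were higher and 25.3% lower. The median log2 ratio of the 10 genes was 0.76, and that of all genes 0.09. With median scaling the median of all genes moved by -0.82, and 23.0% rather than 52.8% of the changed genes were higher. Quantile normalization moved it by -0.20 and gave 41.5%, and normexp moved it by 0.14. Under median scaling *Hmox1* and *Cp* were past 2-fold higher, with log2 ratios of 2.31 and 2.07, and *Slc11a1* and *Fth1* were not.

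Lamtor1 deficiency left 1 gene 2-fold or more higher (*Steap3*, by its main probe alone) and 1 lower (*Blvrb*), beside 9.48% higher and 9.38% lower of 15566 genes. The median log2 ratio was -0.30 for the 10 genes and 0.08 for all. Torin1 left 1 higher (*Slc40a1*) and 1 lower (*Tfrc*), beside 12.8% and 14.3% of 15958 genes. The medians were 0.17 and 0.05. Among the changed genes 47.3% were higher after Torin1, and 31.2% with median scaling, which moved the median of all genes by -0.25. These shares for 10 genes are near those of all genes, so the counts set the iron and heme genes apart from the rest in neither comparison.

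Lamtor1-deficient and Torin1-treated BMDMs were each compared with the same M2 array, so their ratios to it share its error. Set directly against each other, 2 genes were higher in Lamtor1-deficient BMDMs (*Tfrc* and, by its main probe alone, *Steap3*). Another 2 were lower (*Slc40a1* and *Blvrb*), beside 14.1% higher and 11.2% lower of 15938 genes. The higher share of changed genes was 55.8%, against 74.7% with median scaling and 44.6% when the percentile was taken only over the probes that no array had left at background. Those scalings moved the median of all genes by 0.31 and -0.15. The median log2 ratio was -0.45 for the 10 genes and 0.06 for all.

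**Figure D3:**
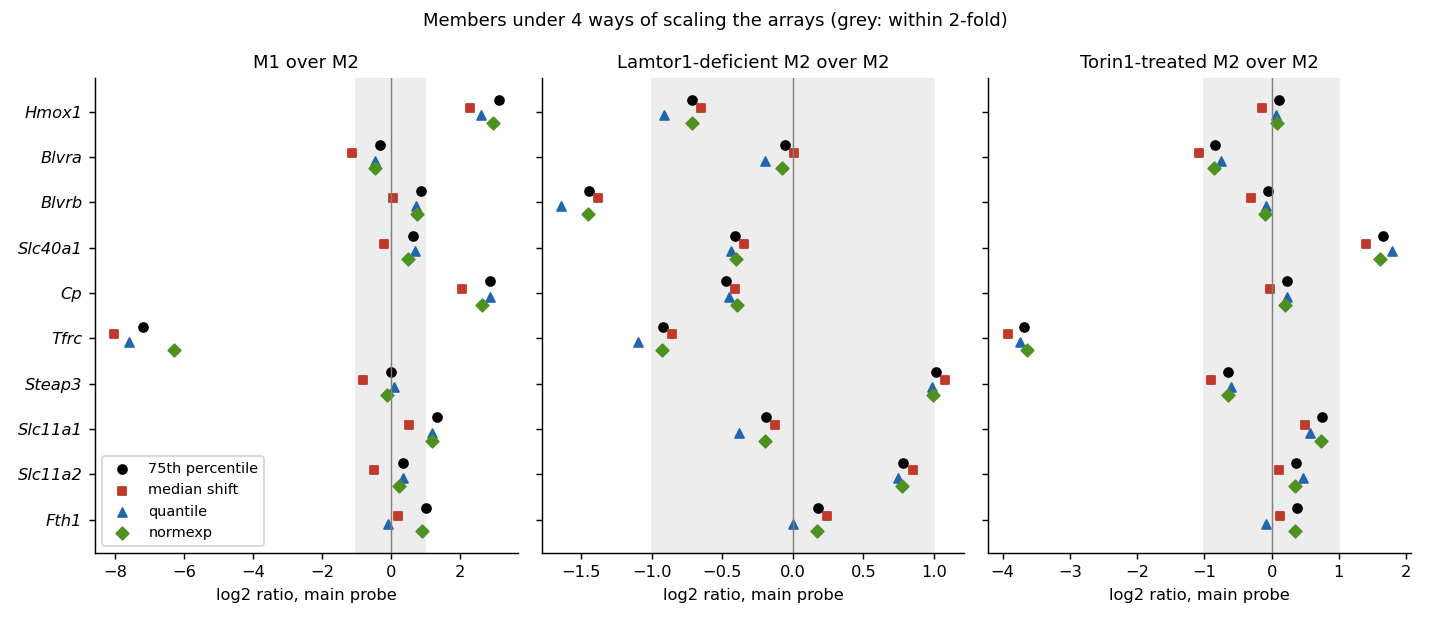
Log2 ratio to M2 (x axis, a different range in each panel) of the main probe of the 10 genes under 4 ways of making the arrays comparable, with the range within 2-fold in grey. The M1 values move together to the left with median scaling, so *Fth1* goes from 1.03 to 0.21. *Tfrc* stays below -6 in M1 and below -3 after Torin1 under each.

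The genes with the pattern closest to *Tfrc* over the 4 arrays, by Euclidean distance between log2 levels centred on M2 among 12999 genes, were *Matk*, *Mrc1* and *Flt1*, at distances of 1.41, 1.51 and 1.55. *Mrc1*, the mannose receptor and an M2 marker, had log2 ratios of -8.18 in M1, -1.42 in Lamtor1-deficient BMDMs and -2.64 after Torin1. The nearest to *Hmox1* were *Pml*, *Runx1* and *Prdm2*, at distances of 0.06, 0.12 and 0.24. With 4 arrays, many genes can lie close to a given pattern.

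A wider list of 63 iron and heme genes gave the surroundings of the members, and all 63 were on the array. In M1 BMDMs, 14 of 53 measured were 2-fold or more higher (26.4%) and 19 lower (35.8%), with a median log2 ratio of -0.19. Of all genes 28.3% were higher and 25.3% lower. With median scaling, 8 genes of the list were higher and 27 lower, beside 12.6% and 42.3% of all genes. Of the heme synthesis genes 4 of 8 were lower and none higher in M1. *Uros* fell by 3.48 on the log2 scale and *Cpox* by 2.96, whereas *Alas1*, which catalyses the first step, had a log2 ratio of -0.19. Of 7 genes of mitochondrial iron and Fe-S clusters, 5 were lower in M1. The mitoferrin genes *Slc25a37* and *Slc25a28* were the exceptions, at 2.17 and 1.69. With median scaling 1 gene of this group was 2-fold or more higher and 5 were lower.

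Of 8 regulators of heme genes, 4 were 2-fold or more higher in M1 and none was lower, beside 28.3% and 25.3% of all genes. With median scaling 4 were higher and 1 lower, beside 12.6% and 42.3% of all genes. *Spic*, which directs the red pulp macrophage programme, read 6842 on the M1 array, 226 on the M2 array, 344 without Lamtor1 and 669 after Torin1. The log2 ratio to M2 was 5.97 in M1 BMDMs and 1.90 after Torin1. *Mafk* had 3.07 and *Hif1a* 2.39 in M1. *Fbxl5*, which senses iron and marks an iron regulatory protein for degradation, was higher in M1 at 1.90, and *Aco1*, which encodes iron regulatory protein 1, was lower at -1.70. *Ireb2*, which encodes iron regulatory protein 2, had 0.49. *Hamp*, which encodes hepcidin, the hormone that removes ferroportin from the membrane, read 88.0 in M1 and 10.4 in M2 BMDMs. Its M2 signal was not well above background, which makes it at least 8.43-fold higher in M1.

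In Lamtor1-deficient BMDMs 8 of 52 genes of the list were higher (15.4%) and 6 lower (11.5%), with a median of 0.14, beside 9.48% higher and 9.38% lower of all genes. Of these, 4 of the 7 uptake and endosome genes were higher and 1 was lower. The metalloreductase gene *Steap1* had a log2 ratio of 1.82, the lysosomal channel gene *Mcoln1* 1.41 and the metal transporter gene *Slc39a8* 1.20, and the lower gene was *Trf*, the transferrin gene. *Trf* read 2534 in M1, 211719 in M2, 39440 without Lamtor1 and 14321 after Torin1, so its M2 level was the highest. *Abcg2*, which exports porphyrins, read 2052 in M2, 3973 without Lamtor1 and 699 after Torin1, above M2 in the former and below it in the latter. The heme transporter gene *Flvcr2* was well above background in Lamtor1-deficient BMDMs alone, with a signal of 115, at least 5.91-fold above M2.

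After Torin1, 6 of 53 genes were higher (11.3%) and 9 lower, with a median of -0.11, beside 12.8% higher and 14.3% lower of all genes. With median scaling 5 were higher and 14 lower, beside 8.76% and 19.3% of all genes. *Mcoln1* was at 1.63, *Slc25a37* at 1.67 and *Slc25a28* at 1.46. *Hfe*, whose protein binds the transferrin receptor, read 797 in M1, 18655 in M2, 6050 in Lamtor1-deficient BMDMs and 591 after Torin1. It was thus lower than M2 under all 3 other conditions, as *Tfrc* was. *Aco1* was at -1.22. *Hp*, the haptoglobin gene, read 2772 in M1, 1854 in M2, 4173 without Lamtor1 and 177 after Torin1, so it was above M2 without Lamtor1 and below it after Torin1. Directly compared, 13 of 54 genes were higher in Lamtor1-deficient than in Torin1-treated BMDMs (24.1%) and 5 lower (9.26%), with a median of 0.25, beside 14.1% and 11.2% of all genes. With median scaling 16 were higher and 3 lower, beside 22.5% and 7.64% of all genes.

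The siderophore genes were the group in which all 3 measured members were 2-fold or more lower than M2 both without Lamtor1 and after Torin1. Among all genes, 9.38% were lower without Lamtor1 and 14.3% after Torin1. The group is small and is 1 of several on the list, and both comparisons share the M2 array. *Lcn2*, which binds bacterial siderophores, read 94436 in M1, 2047 in M2, 247 in Lamtor1-deficient BMDMs and 212 after Torin1. Markers of neutrophils, which also express *Lcn2*, moved in the same direction under IL-4. All 6 measured were well above background on the M2 array and 2-fold or more lower on each of the other arrays. In M1, 25.3% of all genes were lower, and the other shares are those given above. Their summed scaled signal was 90.5 in M2, 4.41 in M1, 6.30 without Lamtor1 and 5.87 after Torin1. Their part in the *Lcn2* values, or in any other value for M2, was not tested.

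**Figure D4:**
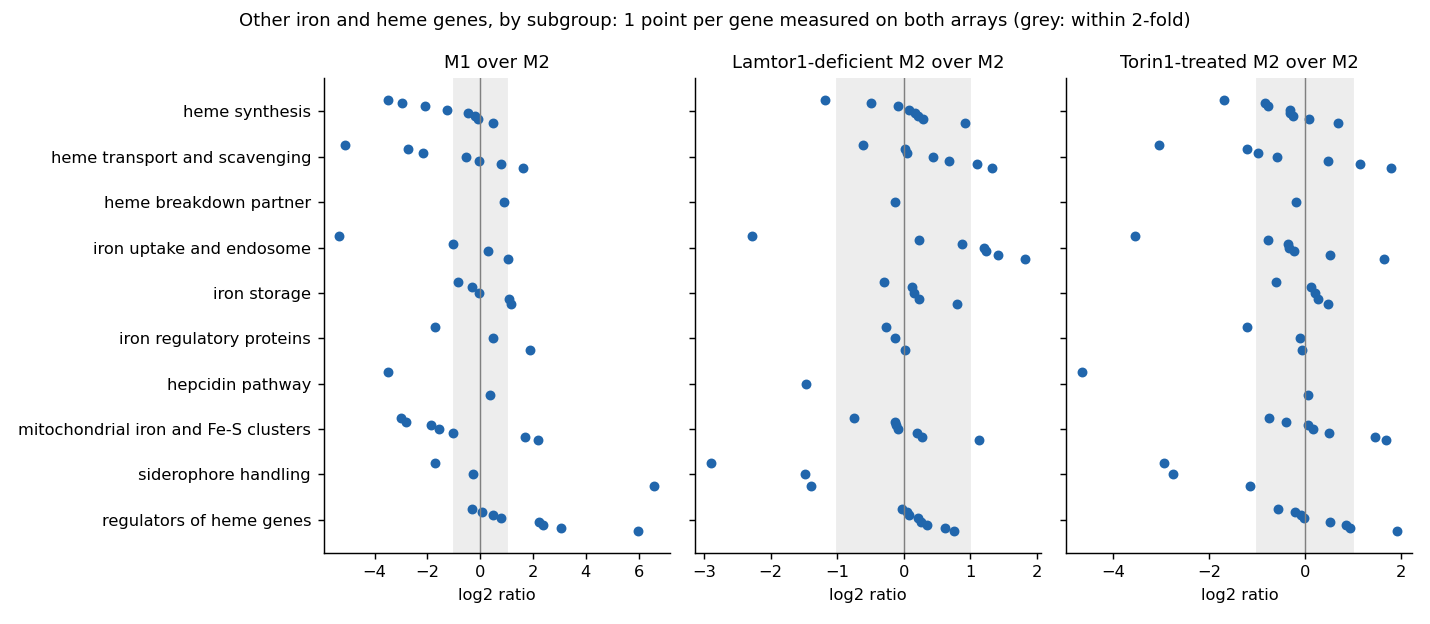
Log2 ratio to M2 (x axis, a different range in each panel) of the other iron and heme genes, 1 point per gene well above background on both arrays, grouped by function, with the range within 2-fold in grey. In M1, 5 of 7 genes of mitochondrial iron and Fe-S clusters lie below the grey range, whereas *Lcn2* and *Spic* lie farthest to the right.

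Markers of other cells were read in the same way. Of 12 erythroid markers 4 to 6 were well above background on an array, with summed scaled signals of 3.88 in M1, 1.83 in M2, 1.03 in Lamtor1-deficient BMDMs and 1.99 after Torin1. In M1 3 of the 6 measured were 2-fold or more higher than in M2, globin genes among them, and none was lower. Among all genes 28.3% were higher in M1 and 25.3% lower. *Gata1* and *Alas2* were not well above background on any array, whereas 3 markers were on all 4. Of 3 hepatocyte markers none was, so *Cp* and *Hp*, which are known from liver, were measured without *Alb*, *Apoa1* or *Ttr*. The sum of 6 genes of dividing cells, which often carry more transferrin receptor, was 143 in M1, 157 in M2, 71.0 without Lamtor1 and 51.5 after Torin1. The sum was mostly *Pcna*, with a log2 ratio of -0.05 in M1, and 4 of the 6 genes were 2-fold or more lower in M1, with a median log2 ratio of -1.64. Of the 6, 4 were lower and 1 higher without Lamtor1, and 5 were lower after Torin1. Beside these stand 25.3% of all genes lower in M1, 9.38% lower and 9.48% higher without Lamtor1, and 14.3% lower after Torin1. The sum of 5 fibroblast markers was 16.0 in M1, 43.2 in M2, 55.9 in Lamtor1-deficient BMDMs and 15.3 after Torin1. The part of these cells in the values of the 10 genes was not tested. In RNA from a whole culture, fewer cells of a type and less RNA per cell cannot be told apart.

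Promoter windows from 250 bases before to 50 after the transcription start were found for 7 of the 10 genes in the RefSeq table of build GRCm38.p6, with 14 windows in all. No window was searched for *Hmox1*, *Slc40a1* and *Slc11a2*. No motif searched was found in more than 2 of the 7 genes. The core of the hypoxia response element, ACGTG on either strand, was in windows of *Tfrc* and *Blvrb* and in 19.6% of all 32851 windows. *Tfrc* has 2 overlapping windows with different annotated starts, and the same match runs across 1 of them and begins 228 bases before the other. It is shown here because the gene had the widest range, with the core in capitals.

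Tfrc, chr16:32608882-32608911, plus strand, GRCm38.p6: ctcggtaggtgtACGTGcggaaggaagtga

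The core of the antioxidant response element, TGACNNNGC on either strand, was in a window of *Blvra* and in 12.4% of all windows. The motif bound by STAT6 downstream of IL-4 (TTC and GAA with 4 bases of any kind between them) was in windows of *Blvrb* and *Steap3* and in 6.95% of all windows. The AP-1 motif TGACTCA was in none of the member windows and in 5.20% of all. The loop sequence of the iron-responsive element, CAGTG on the strand of the gene, was in windows of *Slc11a1* and *Steap3* and in 34.7% of all windows. Of its 4 matches, 3 lie before the annotated start of their window, and the other, in *Steap3*, lies 8 bases after it. Some windows overlap, and a match of this length is a description of the sequence and not of binding.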

How the data were processed

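The deposited scanner files hold 1-colour Agilent signal intensities (Feature Extraction, version 10.5.1.1 in the submitters' notes and 10.7.3.1 in the file headers), background-subtracted by the scanner software. According to the methods, the authors set signals below 1 to 1 and shifted each array to its 75th percentile. Their deposited value table holds the same processed signals, linear, not log2, and not scaled between arrays. The members and gene lists were chosen with earlier results of these data known.

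From the processed intensities, spots marked as non-uniform or population outliers were left out (170 to 226 per array), spots of a probe were averaged, and the array's 75th percentile over all 55681 probes was divided out before log2. The main probe of a gene was the one with the highest mean level over the 4 arrays. A gene was measured in a comparison if that probe was well above background on at least 1 of the arrays. A call was a ratio of 2-fold or more. Where 1 array was not well above background, the bound was computed against the higher of the probe's own signal and that array's lowest signal well above background (15.7 to 21.6). The number of arrays, 1 per condition, limits the precision, and all 4 were on the same slide. The named genes were all 10 members, the 2 genes with the largest ratio in each subgroup of the wider list per comparison, and the 3 nearest patterns of the 2 members with the widest range. Other genes are named as values beside these and were chosen after their values were seen. Of the wider list, 3 genes were found under an older name. On simulated data for M1 over M2 (14864 genes), all 200 genes planted were recovered and 0 unchanged genes were called. With 1 array per condition, the data give no spread between cultures to simulate. The simulation therefore cannot show how many calls in the real data are false. Alternatives were median scaling, the percentile over probes well above background, quantile normalization, normexp with an offset of 50 (limma 3.58.1), keeping outlier spots, the authors' table, the median over probes, thresholds of 1.5-fold and 3-fold, and filters on dim probes. Analyses used Python 3.11.15, pandas 2.3.3 and R 4.3.3. No protein sequences were used here. Some genes that the naming rule selects are not reported here.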

Additional observations from a re-analysis of the deposited data

Results flagged for a closer look

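By their main probes, 5 members lay on opposite sides of M2 in Lamtor1-deficient and Torin1-treated BMDMs. *Slc40a1* was below M2 without Lamtor1 and above it after Torin1, a difference of -2.07 on the log2 scale. The same order was seen for *Slc11a1*, with a difference of -0.94, for *Hmox1*, with -0.82, and for *Cp*, with -0.70, all short of 2-fold. With the percentile over probes well above background *Slc11a1* passed 2-fold, at -1.09. With median scaling the main probe of *Cp* lay below M2 in both, at -0.41 without Lamtor1 and -0.018 after Torin1. The second *Hmox1* probe lay below M2 in both, at -0.34 after Torin1, as did the main probe with median scaling, at -0.14, and the dim second *Cp* probe went the other way, at least 1.45-fold higher without Lamtor1 than after Torin1. *Steap3* was above M2 without Lamtor1 and below it after Torin1, a difference of 1.67, while its other probe gave 0.20. With 1 array per condition none of these differences was tested.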

How the results depend on the processing

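No paired analysis was possible because each condition has 1 array. Over all 40 ratios of main probes and 7 alternatives, 189 of 280 values moved by less than the technical SD, 90 moved by more and 1 called value changed sign, *Fth1* in M1 over M2, at -0.065 with quantile normalization. Of the 10 values for M1 over M2, 8 moved most with median scaling, the exceptions being *Tfrc* (outlier spots kept) and *Fth1*. Of the counts of members past 2-fold, M1 over M2 gave 2 higher with median scaling and 2 at 3-fold (4 in the report), and 2 lower with median scaling (1). Lamtor1-deficient over M2 gave 0 higher with the percentile over probes well above background, with quantile normalization, with normexp, with the median over probes and at 3-fold, and 2 at 1.5-fold (1). It gave 2 lower with quantile normalization, 0 at 3-fold and 3 at 1.5-fold (1). Torin1 over M2 gave 2 higher at 1.5-fold (1), and 2 lower with median scaling and 3 at 1.5-fold (1). Lamtor1-deficient over Torin1 gave 1 higher with the median over probes (2), and 1 lower at 3-fold and 5 at 1.5-fold (2). Smaller moves were to 3 higher with quantile normalization or normexp and 6 at 1.5-fold for M1 over M2, and, for Lamtor1-deficient over Torin1, to 3 higher with median scaling or at 1.5-fold and 3 lower with the percentile over probes well above background. The counts of the wider list with median scaling were added after the data were seen. The arrays cannot give the spread between cultures or mice.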
